A study of Mus musculus with 6 samples.

Results

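The 38 genes described here mark cells other than CD8 T cells, and their levels serve as a purity check of the CD8 preparation. Of these genes, 18 are markers of B cells, 4 of which encode MHC class II proteins or their chaperone, 18 are markers of myeloid cells and 2 mark the CD4 lineage. They were chosen by gene symbol from the 57010 genes of the count table, and all 38 had a row in it. The study measured RNA by sequencing in 6 libraries of mouse CD8 T cells, 3 labelled WT and 3 labelled KO, here called WT1 to WT3 and KO1 to KO3 after the numbers in their titles. The mice were C57BL/6 and 8 weeks old, naive CD8 T cells were sorted out of their spleen and lymph nodes, and both groups were then stimulated through CD3 and CD28 over 24 hours. Both groups carry floxed alleles of MondoA, a transcription factor that responds to glucose and is encoded by Mlxip. The protocols name MondoAfl/fl mice and MondoAfl/flCD4cre mice, and KO is read here as the mice with CD4cre, a Cre recombinase driven by Cd4 regulatory sequences and active in developing T cells. No label ties the genotype tags to these mice in words, and the titles of all 6 samples carry "M-cre". On this reading no WT mouse has Cre, and what Cre does cannot be told apart from what the loss of MondoA does. The labels do not say that each library came from its own mouse, so p-values measure only the spread between these samples.

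B cells carry an antigen receptor made of immunoglobulin chains and the signalling pair encoded by Cd79a and Cd79b, and their identity is held by the transcription factors Pax5 and Ebf1. MHC class II molecules present peptides to CD4 T cells. In mice they are made by B cells, dendritic cells and macrophages, whereas resting and activated mouse CD8 T cells make little or none. Spleen and lymph node contain all of these cells beside CD4 and CD8 T cells, so their transcripts serve as markers of what accompanies sorted CD8 T cells. Several markers are not private to 1 cell type: activated CD8 T cells can carry the integrins encoded by Itgax and Itgam, and Cst3 is transcribed widely.

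The libraries held between 26150420 counts (WT3) and 34447230 counts (KO3). Levels are given as CPM (counts of a gene relative to the size of its library) scaled by TMM, a method that makes libraries comparable through the genes they share. Where levels of different genes are set against each other per kilobase, this means per kilobase of exon. Sums over lists and rankings by CPM are not divided by length, so they also depend on the lengths of the genes. The targeted gene Mlxip stood at 124, 121 and 142 CPM in WT1, WT2 and WT3 and at 79.5, 92.6 and 86.0 CPM in KO1, KO2 and KO3, so its groups did not overlap. Xist, the RNA of the inactive X chromosome, stood at 737 CPM in WT3 and 668 CPM in KO2 and at 1.67 CPM or less in the other libraries. Ddx3y, a gene of the Y chromosome, ran the other way, at 0.1475 CPM in WT3 and 0.061 CPM in KO2. In the other libraries Ddx3y stood at 190.3 to 211.5 CPM. Each genotype thus had 1 library that differed from its other libraries in these sex-linked RNAs. The CD8 label was checked with 15 T cell genes: Cd8a stood at 140.3 CPM per kb in WT and 158 in KO on average, Cd8b1 at 217 and 246, and Cd4 at 0.920 and 0.447. All 15 were higher in KO by between 0.089 and 0.28 on the log2 scale, where 7758 of the 16439 genes tested were higher in KO. By edgeR's quasi-likelihood test with Benjamini-Hochberg adjustment, 0 of the 15 were called. At an unadjusted p under 0.05, 4 of the 15 stood higher, against 830 of the 16439 genes. In 7 of the 15 every KO value exceeded every WT value, against 1282 of the 16439 genes.

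The 38 markers together took between 0.0785% (WT2) and 0.138% (WT3) of the counts of a library. Their summed level was 1149, 782 and 1326 CPM in WT1, WT2 and WT3 and 825, 974 and 811 CPM in KO1, KO2 and KO3. WT1 and WT3 thus lay above all other libraries, WT2 was the lowest of the 6, and the groups overlapped. Against each 100 reads of the 15 T cell genes there were 29.4, 16.8 and 31.6 marker reads in the WT libraries and 16.3, 20.6 and 17.6 in the KO libraries. On this scale too WT1 and WT3 were highest, and KO1 took the lowest place. The B cell markers made up most of the sum, at 482 to 912 CPM, against 290.2 to 400 CPM for the myeloid markers and 6.64 to 20.0 CPM for the CD4 lineage markers. Here the 4 class II genes count as B cell markers. Without them the B cell sum ran from 294 CPM (KO3) to 515 CPM (WT3), and in KO3 it lay below the myeloid sum of 318 CPM. In bulk RNA, fewer cells of a type and less RNA per cell cannot be told apart.

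Per kilobase, a few markers reached the level of T cell genes while most lay far below them. Ctss was the most abundant marker, at 135 CPM per kb in WT and 149 in KO, close to Cd8a. Ighm followed at 126 and 119, Igkc at 124 and 76.6, Cst3 at 93.6 and 63.8, and Cd74 at 81.4 and 53.5. The plot of levels per length shows the libraries of neighbouring genes in this order overlapping, so these ranges do not fix the order of neighbours among these 5 genes. At the low end, Clec9a, Csf1r, Itgam, Lyz2 and Cr2 lay at 0.206 CPM per kb or below in both groups.

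**Figure D1:**
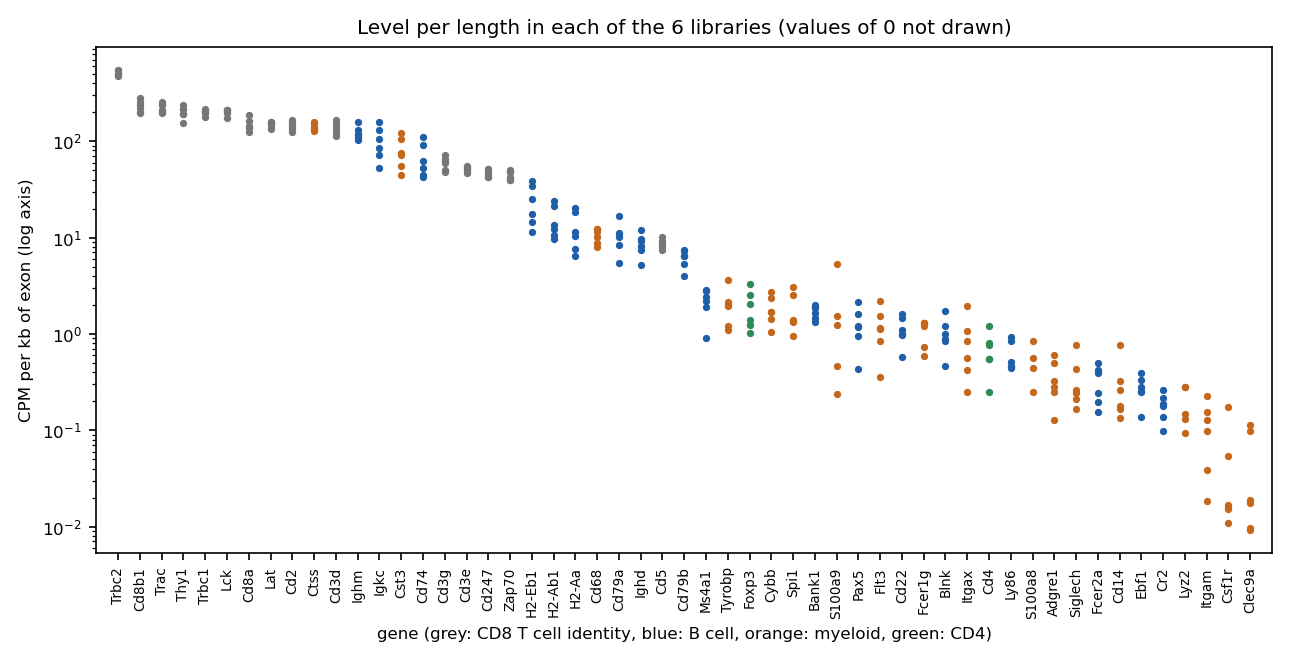
Level of each marker and of 15 T cell genes in CPM per kb of exon (log axis), with 1 point for each of the 6 libraries and genes ordered by their mean. Ctss, Ighm and Igkc lie among the T cell genes (grey), whereas Cd4 lies far below Cd8a, and Clec9a and Csf1r are lowest.

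In the comparison of KO with WT, 34 of the 38 markers had enough reads to be tested: all 18 B cell markers, 14 of 18 myeloid markers and both CD4 lineage markers. Lyz2, Csf1r, Clec9a and S100a8 did not pass the filter on low counts. Of the 34 tested, 31 had a fitted level below WT in KO and 3 (Bank1, Ctss and Cd68) above it, with a median log2 fold change of -0.63. Over all 16439 genes tested, 52.8% were lower in KO and the median was -0.016. None of the markers passed edgeR's quasi-likelihood test at an adjusted p of 0.05, where 0.0122% of all genes (2 genes) passed. At an unadjusted p under 0.05, 8 markers (23.5%) stood lower in KO and 0 higher, against 5.77% of all genes that stood lower. DESeq2 gave an adjusted p to 30 of the 38 markers and called 0 of them, where it called 1.10% of the 13305 genes with an adjusted p. At an unadjusted p under 0.05 it had 8 of 38 markers (21.1%), against 6.33% of all genes. In 4 of the 34 tested markers (11.8%), Fcer2a, Pax5, Adgre1 and Cd4, every KO value was lower than every WT value, which held for 8.65% of all genes. Without the filter on low counts, edgeR called 13 of the 38 markers (34.2%), all lower in KO, among them the 4 class II genes, Igkc, Pax5, Cst3, Cd4 and Foxp3, where it called 1.76% of all genes. Their fold changes hardly moved with this setting (-0.71 with the filter and -0.70 without it for H2-Aa), and why the calls changed was not tested. The markers share their libraries, so these counts are not independent of each other.

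**Figure D2:**
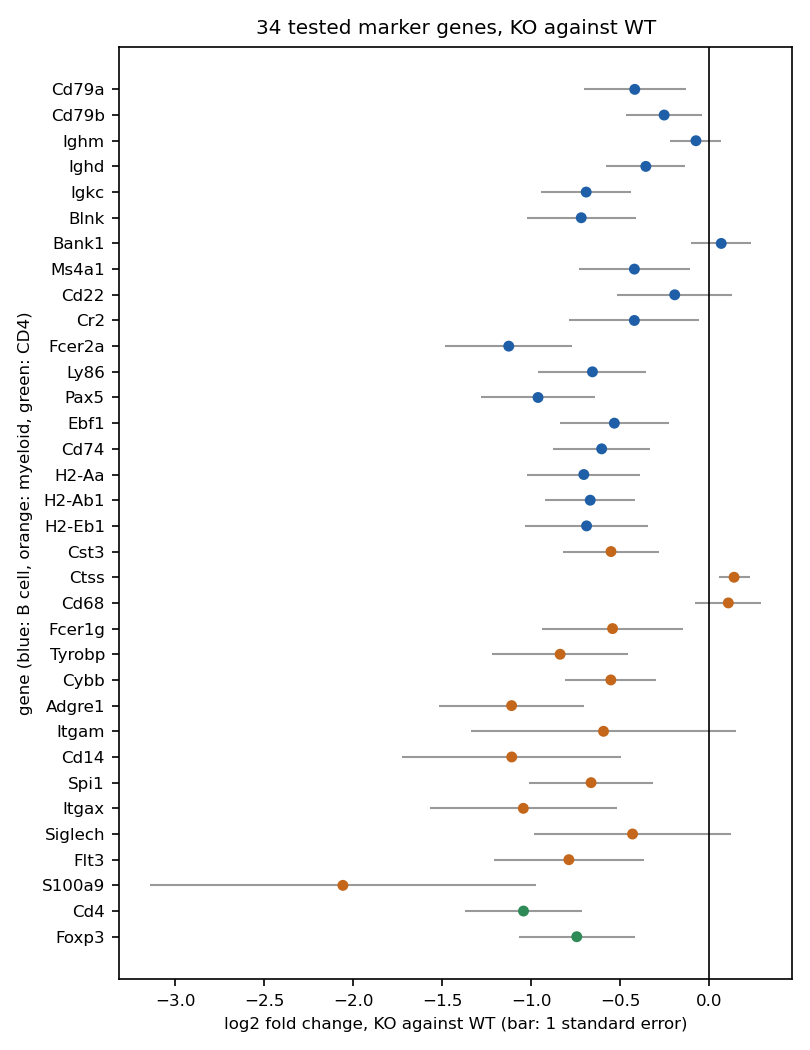
Log2 fold change of KO against WT (point) with 1 standard error (bar) for the 34 tested markers, from edgeR. All but 3 points (Bank1, Ctss and Cd68) lie left of 0, from -0.076 for Ighm to -2.06 for S100a9, and no marker passed at an adjusted p of 0.05.

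The differences between single libraries were wider than those of most genes. Among the 20 markers at a mean of at least 5 CPM, the highest library exceeded the lowest by a median of 2.76-fold, against 1.31-fold over the 9866 tested genes at that level. In 15 of these 20 markers (75%) the ratio was at least 2, as it was in 4.76% of the genes at that level. The 5 steadier markers were Ctss at 1.24, Bank1 at 1.49, Ighm at 1.53, Cd68 at 1.57 and Cd79b at 1.88. The highest library was WT3 for 25 of the 38 markers, WT1 for 10 and KO2 for 3. WT1 or WT3 was thus highest in 92.1% of the markers, against 38.5% of all genes tested. The lowest library was more mixed: KO3 for 16 markers, KO1 for 10, WT2 for 7, KO2 for 3, WT3 for 1, and 1 marker had a tie. WT2 did not share the high levels of WT1 and WT3. Without WT1, 3 of 37 tested markers (8.11%) had an unadjusted p under 0.05 by edgeR's quasi-likelihood test, against 5.47% of all genes. Without WT3 they were 3 of 35 (8.57%) against 7.79%, both near the share of all genes. Without WT2 they were 21 of 38 (55.3%), while the share of all genes also stood higher, at 13.6%. With KO1, KO2 or KO3 left out, the shares of markers were 23.7%, 24.3% and 21.6%. Those of all genes were then 8.15%, 9.02% and 11.9%. The log2 ratio of the B cell sum was -0.37 without WT1 and -0.19 without WT3, against -0.40 with all libraries. What sets WT1 and WT3 apart was not tested.

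**Figure D3:**
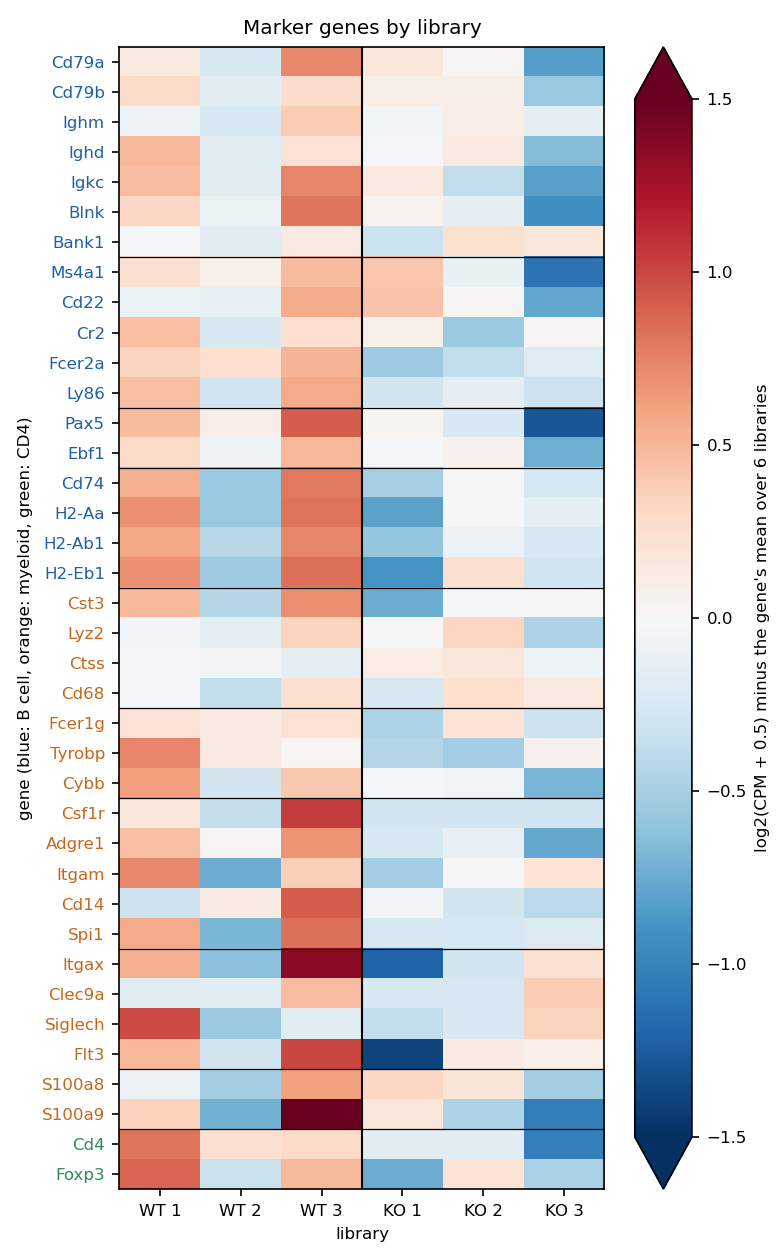
Heat map of the 38 markers (rows, grouped by role) in the 6 libraries (columns): log2(CPM + 0.5) minus the gene's mean over the libraries, red above and blue below that mean. WT1 and WT3 are red in most rows, WT2 and KO1 are blue in the MHC class II rows, and KO3 is blue in the rows of B cell receptor and transcription factor genes except Bank1.

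Ighm and Igkc were the most abundant B cell markers per kilobase. Ighm, which encodes the heavy chain of IgM, stood at 217, 196 and 299 CPM in WT1, WT2 and WT3 and at 222, 246 and 208 CPM in KO1, KO2 and KO3. WT3 was highest and WT2 lowest, the groups overlapped, and the log2 fold change was -0.076 ± 0.143 (SE). Igkc, the constant region of the kappa light chain, stood at 69.4, 44.8 and 83.5 CPM in WT and at 55.5, 38.6 and 28.2 CPM in KO. WT3 and WT1 were highest and KO3 lowest, with only WT2 inside the KO range. Its log2 fold change was -0.69 ± 0.254 (edgeR quasi-likelihood adjusted p = 0.393). The ratio of Igkc to Ighm per kilobase ranged from 0.481 in KO3 to 1.13 in WT1, so the RNAs of these genes did not move in step across libraries. Ighd, the IgD heavy chain, lay between 9.95 CPM (KO3) and 22.7 CPM (WT1), with a log2 fold change of -0.36 ± 0.223.

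Cd79a, the receptor's signalling chain Ig-alpha, stood at 16.0, 12.1 and 24.1 CPM in WT and at 16.3, 14.7 and 7.96 CPM in KO. WT3 was highest, KO3 lowest, and KO1 and KO2 lay above WT2. Its log2 fold change was -0.42 ± 0.286, and that of its partner Cd79b, at 5.68 to 10.7 CPM, was -0.25 ± 0.215. Of the adaptors behind the receptor, Blnk, the linker downstream of the kinase Syk, stood at 7.16, 5.25 and 10.3 CPM in WT and at 5.92, 5.07 and 2.78 CPM in KO. KO3 was lowest, and WT2 lay below KO1. The log2 fold change of Blnk was -0.72 ± 0.306 (edgeR quasi-likelihood adjusted p = 0.449). Bank1, a scaffold protein of B cells, had 9.94 to 14.8 CPM and a log2 fold change of 0.066 ± 0.169, and was highest in KO2.

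Of the transcription factors, Pax5, which commits cells to the B lineage, stood at 14.1, 10.7 and 19.2 CPM in WT and at 10.3, 8.42 and 3.80 CPM in KO. The groups did not overlap, though KO1 and WT2 differed little, and KO3 lay furthest down. Its log2 fold change was -0.96 ± 0.323 (edgeR quasi-likelihood adjusted p = 0.375). Ebf1, which acts with Pax5 early in B cell development, lay between 1.35 CPM (KO3) and 3.84 CPM (WT3), with overlapping groups and a log2 fold change of -0.53.

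Of the 5 B cell surface markers, all had a fitted level below WT in KO and none passed the test. Ms4a1, which encodes CD20, stood at 15.1, 13.4 and 17.9 CPM in WT and at 17.2, 11.8 and 5.65 CPM in KO. KO3 was lowest while KO1 was second only to WT3. Fcer2a, the low-affinity IgE receptor CD23, was scarce, at 1.32, 1.21 and 1.55 CPM in WT and 0.482, 0.610 and 0.761 CPM in KO. Its groups did not overlap, with a log2 fold change of -1.13 ± 0.357 (edgeR quasi-likelihood adjusted p = 0.368). The inhibitory receptor Cd22 ranged from 2.93 to 8.19 CPM, the complement receptor Cr2 from 0.794 to 2.12 CPM and Ly86, which encodes MD-1, from 1.61 to 3.39 CPM, with log2 fold changes of -0.20, -0.42 and -0.66 and overlapping groups. WT3 was highest in 14 of the 18 B cell markers and KO3 lowest in 10. The direction of Ighm and Cd22 turned when WT3 was left out, to 0.12 and 0.082 on the log2 scale, and that of Cd22 also without KO3, to 0.099.

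The MHC class II genes followed another order of libraries. H2-Aa, the alpha chain of the class II molecule I-A, stood at 69.7, 28.8 and 76.2 CPM in WT and at 24.4, 43.3 and 39.3 CPM in KO. WT1 and WT3 lay above the rest, WT2 lay below KO2 and KO3, and KO1 was lowest. H2-Ab1, its beta chain, stood at 55.1, 27.5 and 61.5 CPM in WT and at 24.5, 34.6 and 31.3 CPM in KO, the same order of the 6 libraries as for H2-Aa. Cd74, the invariant chain that chaperones class II molecules, stood at 154, 71.7 and 184 CPM in WT and at 75.2, 106 and 88.8 CPM in KO, with WT2 below KO1. H2-Eb1 stood at 67.1, 28.3 and 74.5 CPM in WT and at 22.1, 49.3 and 33.8 CPM in KO, and it too was lowest in KO1. H2-Eb1 encodes the beta chain of I-E, which C57BL/6 mice transcribe but do not display because they lack a working alpha chain gene. WT3 was highest in all 4 genes, and KO1 lowest in 3. The log2 fold changes were -0.71 ± 0.318 for H2-Aa, -0.67 ± 0.251 for H2-Ab1, -0.61 ± 0.274 for Cd74 and -0.69 ± 0.343 for H2-Eb1. By edgeR's quasi-likelihood test the smallest adjusted p among them was 0.397, for H2-Ab1.

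Class II genes are switched on together by the coactivator CIITA. It is recruited to a conserved promoter element whose X and Y boxes are bound by RFX and NF-Y. Its gene Ciita stood at 8.59, 5.78 and 8.997 CPM in WT and at 7.78, 4.91 and 5.295 CPM in KO. WT3 and WT1 were highest, as in the class II sum. KO1, lowest in that sum, came next for Ciita, and KO2 was lowest. The log2 fold change of Ciita was -0.38 ± 0.230. Whether Ciita sets the library order of the class II genes was not tested. Because these genes kept nearly the same order of libraries, the 150 bases before the start of H2-Aa and of H2-Eb1 are shown (RefSeq, GRCm38.p6). Capitals mark GCAAC, from the X box, and ATTGG, the Y box core, which is CCAAT on the other strand. The choice of these letters was made after the sequences had been read.
H2-Aa, chr17:34287824-34287973, minus strand: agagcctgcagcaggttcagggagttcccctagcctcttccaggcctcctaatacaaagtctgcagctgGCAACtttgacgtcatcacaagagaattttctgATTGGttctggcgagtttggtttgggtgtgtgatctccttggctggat
H2-Eb1, chr17:34305717-34305866, plus strand: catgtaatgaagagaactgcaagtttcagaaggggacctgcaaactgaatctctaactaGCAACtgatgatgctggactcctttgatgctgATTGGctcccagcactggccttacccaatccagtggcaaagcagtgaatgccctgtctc
In H2-Aa the capitals begin 81 and 48 bases before the start, with 28 bases between them, and in H2-Eb1 they begin 91 and 59 bases before it, with 27 between. Each window lies upstream of the start of its gene in that table. Searched on both strands in the windows of the same length before 32851 gene starts, GCAAC occurred in 19.6% and ATTGG in 24.5%, the motifs do not overlap each other, and GCAAC followed within 40 bases by ATTGG on 1 strand occurred in 330 windows (1%). A match of letters is a description of the sequence and not of binding in these cells.

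The class II genes kept close proportions to one another and to Cst3, but not to Cd79a or to the sum of the other B cell markers. H2-Aa over H2-Ab1 per kilobase ranged from 0.673 to 0.856 over the 6 libraries, H2-Eb1 over H2-Aa from 1.68 to 2.22, and Cst3 over H2-Aa from 5.74 to 7.25. The highest of these ratios thus exceeded the lowest by 1.27-fold, 1.32-fold and 1.26-fold. H2-Aa over Cd79a ranged from 0.573 (KO1) to 1.89 (KO3), a 3.31-fold range. Summed over the 4 class II genes, WT held 346, 156 and 396 CPM and KO 146, 233 and 193 CPM. Summed over the other 14 B cell markers, WT held 399, 326 and 515 CPM and KO 376, 377 and 294 CPM. KO3, lowest for the B cell markers, was therefore not lowest for class II, and KO1, lowest for class II, was in the middle for the B cell markers. The ratio of these sums was 0.867, 0.480 and 0.769 in WT and 0.389, 0.617 and 0.657 in KO, so the ranges of the genotypes overlapped. Ighm alone made up most of the sum of the 14 B cell markers, at 217, 196 and 299 CPM in WT and 222, 246 and 208 CPM in KO. Per kilobase, Ighm stood at 9.59 (WT3) to 20.2 (KO3) times the level of Cd79a. How much of the Ighm RNA came from B cells was not tested.

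**Figure D4:**
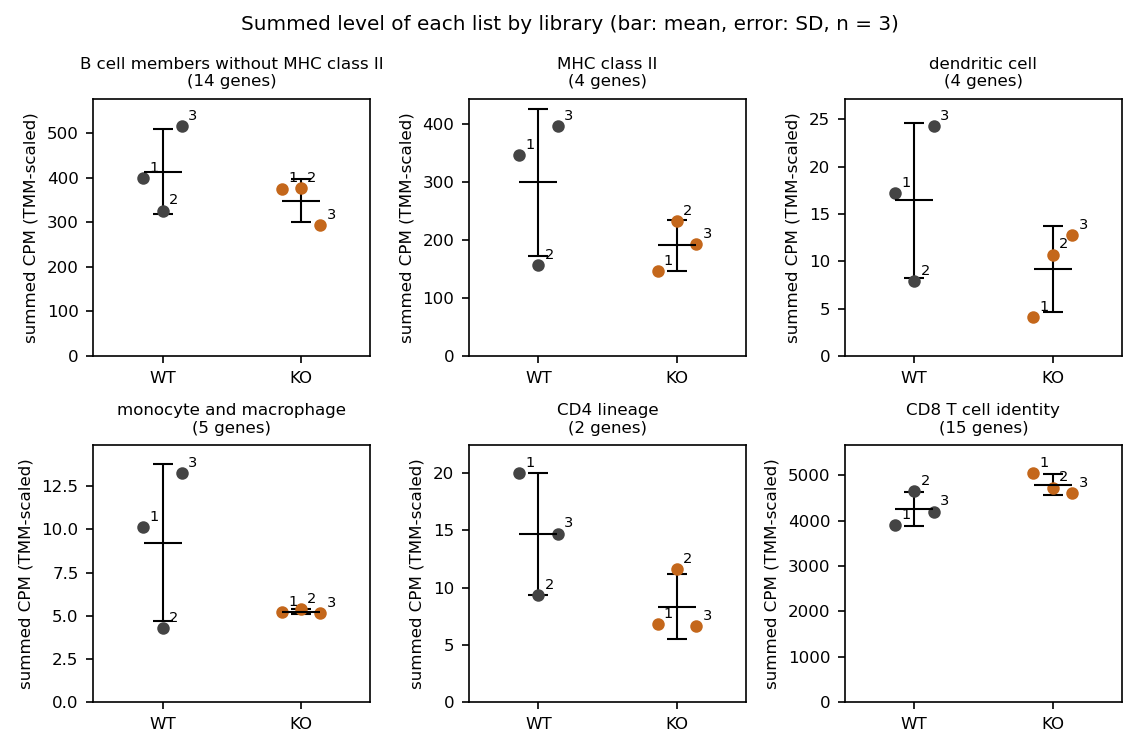
Summed TMM-scaled CPM of 6 gene lists in each library (points, numbered by replicate), with the mean (bar) and SD (error, n = 3) of WT and KO. For MHC class II, WT2 (156 CPM) lies within the range of KO, and for the monocyte and macrophage markers (4.32 CPM) below it, whereas WT1 and WT3 lie above KO in both.

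The myeloid markers split by abundance. Ctss, the protease cathepsin S that degrades the invariant chain, stood at 189.5, 187 and 174 CPM in WT and at 208, 216.5 and 183 CPM in KO. It was highest in KO2 and lowest in WT3, the reverse of most markers, and had a log2 fold change of 0.14 ± 0.087. Cst3, the cysteine protease inhibitor cystatin C, stood at 133, 69.6 and 153 CPM in WT and at 56.0, 91.8 and 94.6 CPM in KO. WT1 and WT3 were high and KO1 lowest, with a log2 fold change of -0.55 ± 0.267. Cd68, a glycoprotein of lysosomes, had 9.91 to 15.5 CPM and a log2 fold change of 0.11, which turned to -0.038 without WT2. Ctss made up so much of the myeloid sum that the sum without it moved more between libraries, from 88.6 CPM in KO1 to 225 CPM in WT3, than the sum with it, from 290.2 CPM in WT2 to 400 CPM in WT3. Ctss was thus high and steady while Csf1r and Lyz2 were near 0, and how much of its RNA came from myeloid cells was not tested.

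Dendritic cell markers varied widely between libraries. Flt3, the cytokine receptor that dendritic cells depend on, stood at 9.45, 5.25 and 13.6 CPM in WT and at 2.19, 7.17 and 6.93 CPM in KO. Itgax, which encodes CD11c, stood at 5.13, 2.02 and 9.40 CPM in WT and at 1.19, 2.69 and 4.07 CPM in KO. Both were highest in WT3 and lowest in KO1, with WT2 below KO2 and KO3, as for H2-Aa. Their log2 fold changes were -0.79 ± 0.423 and -1.05 ± 0.523, and that of Itgax became -0.43 without WT3. The plasmacytoid marker Siglech lay between 0.559 CPM (WT2) and 2.58 CPM (WT1), and its log2 fold change of -0.43 became 0.48 without WT1. Reads of Clec9a, a receptor of cross-presenting dendritic cells, numbered 2, 2 and 10 in WT and 1, 1 and 11 in KO, so that WT3 and KO3 held most of them. Summed over the 4 dendritic cell markers, WT held 17.2, 7.89 and 24.3 CPM and KO 4.12, 10.7 and 12.8 CPM.

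Monocyte and macrophage markers were scarce. Spi1, which encodes the transcription factor PU.1 of myeloid and B cells, stood at 6.79, 2.55 and 8.22 CPM in WT and at 3.67, 3.60 and 3.77 CPM in KO. The KO libraries lay close together between WT2 and the other WT libraries, with a log2 fold change of -0.66. Adgre1, which encodes the macrophage protein F4/80, stood at 1.60, 1.06 and 1.95 CPM in WT and at 0.804, 0.916 and 0.410 CPM in KO. Its groups did not overlap, with a log2 fold change of -1.11 ± 0.409 (edgeR quasi-likelihood adjusted p = 0.394). The LPS coreceptor Cd14 lay between 0.234 and 1.33 CPM, with a log2 fold change of -1.11 that became -0.36 without WT3. Itgam, which encodes CD11b, lay between 0.0932 and 1.15 CPM, and its log2 fold change of -0.60 became 0.071 without WT1. In the annotation used, Gm49368 on the same strand covers 68.7% of its exon bases, so its reads are uncertain. Csf1r, the receptor of macrophage growth factor, had 3 reads in each KO library and 11, 2 and 27 in the WT libraries, and Hmgxb3 on the opposite strand overlaps 15.1% of its exon bases. Lyz2, the lysozyme of monocytes, macrophages and neutrophils, counted 6, 4 and 10 reads across WT and 6, 12 and 0 across KO.

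Of the genes shared by several myeloid cell types, Cybb, the large subunit of the phagocyte oxidase, stood at 15.8, 8.23 and 13.5 CPM in WT and at 9.84, 9.77 and 6.03 CPM in KO, with overlapping groups and a log2 fold change of -0.55. The signalling adaptors Tyrobp and Fcer1g, which pair with activating receptors of myeloid and NK cells, lay between 0.733 and 2.43 CPM and between 0.515 and 1.15 CPM, with log2 fold changes of -0.84 and -0.54. The neutrophil proteins of the calprotectin pair were scarce and highest in WT3. The reads of S100a9 numbered 28, 4 and 76 in WT and 20, 8 and 0 in KO, and those of S100a8 numbered 6, 0 and 16 in WT and 12, 10 and 0 in KO. A count of 0 allows up to 3 counts, or 0.0878 CPM in KO3, and this covers counting error only. The fitted log2 fold change of S100a9 was -2.06 ± 1.08, and it became -0.66 without WT3, -1.46 without KO3 and -3.30 without KO1.

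Both CD4 lineage markers stood lower in KO without passing the test. Cd4, the coreceptor of helper T cells, stood at 4.84, 3.08 and 3.21 CPM in WT and at 2.22, 2.20 and 0.995 CPM in KO. The lowest WT library, WT2, lay above the highest KO library, with a log2 fold change of -1.04 ± 0.331 (edgeR quasi-likelihood adjusted p = 0.368). Per kilobase, Cd8a exceeded Cd4 by 104-fold, 210-fold and 170.4-fold in WT1, WT2 and WT3 and by 343-fold, 259-fold and 580-fold in KO1, KO2 and KO3. This ratio was lowest in WT1, and every KO library lay above every WT library. Foxp3, the transcription factor of regulatory T cells, stood at 15.2, 6.31 and 11.5 CPM in WT and at 4.63, 9.40 and 5.65 CPM in KO. WT1 was highest, and KO2 lay above WT2. Its log2 fold change was -0.75 ± 0.327 (edgeR quasi-likelihood adjusted p = 0.456). Foxp3 per kilobase was 1.81 to 5.0 times the level of Cd4. Exons of Flicr on the same strand cover 18.6% of the exon bases of Foxp3, so some of its reads could be counted for either gene. On the opposite strand, Ccdc22, Gm36995 and Ppp1r3f overlap 12.9%, 8.15% and 5.81% of these bases. How much of the Foxp3 RNA came from CD4 T cells was not tested. The sum of both markers was 1.76-fold higher in WT on average, at 14.7 ± 5.32 against 8.36 ± 2.80 CPM (SD, n = 3).

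The summed levels give the same picture by cell type, with no test. The B cell sum averaged 713 ± 217 CPM across WT and 540 ± 63.4 CPM across KO (SD, n = 3), a log2 ratio of -0.40 that became -0.19 without WT3 and -0.62 without WT2. Without the class II genes the log2 ratio of the B cell sum was -0.25. The myeloid sum was 358 ± 59.1 and 322 ± 28.4 CPM, a log2 ratio of -0.15 that became -0.065 without WT3, -0.099 without WT1, -0.095 without KO1 and -0.28 without WT2. The log2 ratio of the CD4 lineage sum was -0.81, or -0.53 without WT1. The groups overlapped in all 3 sums. Against the summed T cell genes, which stood at 4251 ± 374 CPM in WT and 4793 ± 228 CPM in KO, the log2 ratios were -0.60, -0.34 and -1.02.

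Further genes of the same cell types are given by list. Of 16 other B cell genes 15 were tested, 14 were lower in KO and 0 were called, and together they reached 131, 98.4 and 172 CPM in WT and 99.9, 111 and 86.0 CPM in KO. WT3 was highest and KO3 lowest, as for the B cell markers without the class II genes. By CPM, not divided by length, Cd40, Pou2af1 and Cd72 led the list, and the smallest p-values were those of Fcrl1, a receptor-like protein of B cells (log2 fold change -1.27), and of the kinase Syk (-0.98). All 8 tested plasma cell genes of 9 were lower in KO and 0 were called. Igha, the heavy chain of IgA, stood at 95.1, 62.6 and 88.3 CPM in WT and 78.7, 54.9 and 42.5 CPM in KO, and with Jchain and Ighg2b it led the list by CPM not divided by length. Ighg1 had the smallest p, with a log2 fold change of -2.59 and 4.28 CPM in WT3 against 1.24 CPM or less elsewhere, followed by Ighg3 at -1.43.

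Of the 11 other genes of the class II pathway, 8 were lower in KO, 3 higher and 0 called. The thiol reductase Ifi30 stood at 20.6, 13.4 and 24.6 CPM in WT and 10.2, 11.1 and 11.5 CPM in KO, with a log2 fold change of -0.84 ± 0.197 (edgeR quasi-likelihood adjusted p = 0.330). H2-DMa, which helps load peptides, had a log2 fold change of 0.18, the RFX subunits Rfxap and Rfxank 0.20 and -0.084, and Rfx5 -0.37. Of the 20 other myeloid genes only 9 were tested, of which 8 were lower and 0 called. Their sum ran the other way from that of the markers, at 681, 643 and 580.4 CPM in WT and 772, 706 and 613 CPM in KO, with KO1 highest and WT3 lowest. Most of it came from Ly6c2, which CD8 T cells also express and which had a log2 fold change of 0.30. Irf8 and Mpeg1 came next by CPM, and the smallest p-values were those of Tcf4 (-0.70) and Zbtb46 (-0.64), transcription factors of plasmacytoid and classical dendritic cells. Chosen after their values were seen, C1qc, Cd209a and Retnlg had 0 reads in every library, as did Pf4 and Ppbp of platelets, Marco had 4 reads in WT3 alone, and C1qb 6 reads in KO1 alone.

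Of the 9 other helper and regulatory T cell genes, 6 were lower in KO and 0 called. Ikzf4, Ikzf2 and Lrrc32 led by CPM not divided by length, and Lrrc32, a surface protein of regulatory T cells, had a log2 fold change of -0.63. Of 13 NK and gamma delta T cell genes 8 were tested, 6 were lower and 0 called. Together they reached 22.5, 20.3 and 21.2 CPM in WT and 10.9, 15.2 and 16.9 CPM in KO, so these groups did not overlap, and WT2 stood with the other WT libraries here. Klre1, an NK cell receptor, had a log2 fold change of -1.59 (edgeR quasi-likelihood adjusted p = 0.192), Klrb1c one of -0.75 and Fcgr3 one of -0.36. The 2 tested genes higher in KO, named after their values were seen, were Trdc (0.25) and Klri2 (0.12). Trdc, of gamma delta T cells, stood at 1.98, 2.36 and 2.51 CPM in WT and 2.64, 2.72 and 2.78 CPM in KO. Every KO library thus lay above every WT library for Trdc. The 6 tested of 10 erythroid and platelet genes were all lower and 0 were called, with log2 fold changes of -0.46 for Itga2b, -0.11 for Hbb-bs and -0.079 for Hba-a1.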

How the data were processed

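The authors deposited raw read counts, whole numbers with no normalization, for each Ensembl gene in 6 libraries. The submitters' processing notes name HISAT2, Subread with featureCounts and GRCm39; tool versions, the annotation, the use of strand and the handling of multimapping reads were not given in the sources used here. Without the strand setting, overlapping genes share reads. Per the labels, RNA was extracted with Trizol and made into libraries with a kit from Vazyme. Symbols were matched by Ensembl identifier (52029 of 57010) to GENCODE M21 on GRCm38, which also gave exon lengths and overlaps.

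The members and lists were chosen with earlier results of these data known. Groups follow the genotype tag. With R 4.3.3 and edgeR 4.0.16, filterByExpr (minimum count 10, minimum total 15) kept 16439 genes, and KO was compared with WT by glmQLFTest after TMM scaling, two-sided, with Benjamini-Hochberg adjustment over all of them and a threshold of 0.05. Levels are TMM-scaled CPM, and sums got no test. Alternatives were library size alone, no filter (genes with at least 1 count), DESeq2 1.42.0, a replicate block, each library left out and, chosen after seeing the data, a term for the Xist-high libraries; sums were also scaled by DESeq2 size factors or by 15 T cell genes, or replaced by the members' median. The test was also run on counts simulated with the same dispersion for every gene. That setting lacks the wider spread of these markers, so the run does not cover them. An exact permutation test of 3 against 3 cannot go below p = 0.1. The median SE of a log2 fold change was 0.113 among genes averaging 5 CPM or more, and a count of 0 allows 0.0859 to 0.111 CPM. All members are named. Of each other list, up to 3 genes of highest mean and 2 of smallest p are named, with Mlxip as the check of the labels. Some further genes were named after their values were seen. Of the members 25 had a promoter window in the RefSeq table; its 2 class II genes are shown.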

Additional observations from a re-analysis of the deposited data

How the results depend on the processing

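Without the filter on low counts, edgeR called 13 of the 38 members (34.2%), all lower in KO, where 1.76% of 29109 genes (511) were called. These were Cd74, H2-Aa, H2-Ab1, H2-Eb1, Igkc, Pax5, Blnk, Cst3, Itgax, Flt3, S100a9, Cd4 and Foxp3. Their fold changes hardly moved: H2-Aa had a log2 fold change of -0.70 (edgeR quasi-likelihood adjusted p = 3.31e-07) against -0.71 (adjusted p = 0.461) with the filter. The cause was not tested. DESeq2 called 146 genes and the term for the Xist-high libraries 6, each with 0 members. Leaving out 1 library gave 2 to 80 genes, 80 without KO3, and 0 members each time. The log2 ratio of the summed levels over the left-out libraries ran from -0.62 to -0.19 for B cell, -0.28 to -0.065 for myeloid and -1.12 to -0.53 for CD4 members. The median of the myeloid members was -0.63 against -0.15 for their sum, in which Ctss weighs most.

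Of 374 member values under the alternatives, 9 in 6 of 34 members reversed: Ighm without WT3 (0.12), Cd22 without WT3 (0.082) and without KO3 (0.099), Itgam without WT1 (0.071), Siglech without WT1 (0.48), Cd68 without WT2 (-0.038), and Bank1 by library size alone (-0.0012), without WT2 (-0.0033) and without KO2 (-0.039). With 1 library left out at a time 5 of these went as far the other way as -0.52 for Cd22 without KO1, -1.11 for Itgam without WT2, -0.81 for Siglech without KO3, 0.27 for Cd68 without WT3 and 0.23 for Bank1 without KO1. Same-numbered libraries deviated together by correlations of 0.082, -0.53 and -0.18, so the numbers do not pair them. Other libraries did deviate together across the groups, by 0.69 for WT3 with KO2 (the Xist-high libraries), 0.56 for WT2 with KO1 and 0.29 for WT1 with KO3. Apart from Xist and Ddx3y in WT3 and KO2, what these libraries share was not tested. With the replicate block 2 genes and 0 members were called. Depth limits Clec9a, Csf1r, Lyz2, S100a8 and S100a9, whose reads number from 0 to 76 a library.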
